A study of Drosophila montana and Drosophila virilis with 10 samples.

Results

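The genes described are 44 of the 15342 identifiers counted in whole-fly mRNA libraries of D. montana and D. virilis, related species of the D. virilis group. They were chosen for a mean of 50 CPM (reads scaled to a library total of 1e6 gene reads) or more over the 2 D. virilis control libraries and a mean of 3 CPM or less over the 3 D. montana control libraries. The study compared cold-acclimated flies with flies kept at ambient temperature. The temperatures, the duration and the sex of the flies are not given in the labels used here.

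The D. montana flies were of strain 175OJ8 from Oulanka, Finland, in pools of 10, with 3 control pools at a stated age of 21 to 23 days after eclosion and 3 acclimated pools at 24 to 26 days. The D. virilis flies were of strain TOY3F9 from Toyama, Japan, in pools of 20, with 2 control pools at 27 to 28 days and 2 acclimated pools at 29 to 30 days. Each species is thus represented by 1 strain, and species, strain, pool size and stated age cannot be told apart. No 2 libraries share a stated age, which climbs in steps of 1 day along the deposited series, and whether these ages were measured is not stated. As given, they also separate controls from acclimated pools in both species. Libraries were sequenced on SOLiD instruments of 2 models, and which library ran on which is not stated. Nothing says that pools of a group came from separate cultures, so the error behind each p-value is that among pools and may be technical. Neither the identifiers nor the reference table used here pairs any of the 15342 identifiers with a gene name, a sequence or a place in the genome, and 0 of them matched that table, which lists RefSeq genes of a D. montana assembly and none of these FlyBase identifiers. The genes are therefore named by FlyBase identifier, no role is given to any of them, and markers of tissues or cell types could not be looked up.

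As background, D. montana is a northern species whose females overwinter in reproductive diapause, and D. virilis is a more southern species of the same group. Orthologous genes of such species differ in sequence, and genes of reproduction and immunity in particular often evolve fast among Drosophila species. HTSeq credits a read to a gene only where the read aligned to 1 place and that place lies in an annotated gene. All 10 files carry the same identifiers, and a single annotation therefore served for D. montana and D. virilis alike. Neither the labels nor the files name the species that this annotation was made for. A low count in D. montana can therefore mean little transcript, a gene that is missing, or reads that do not align to the annotated copy because its sequence has diverged. It can also mean reads that aligned to several places or outside any annotated gene. These cannot be told apart with the counts alone.

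Several measures of the libraries moved with species. D. montana libraries had 1518027 to 2235850 gene reads each, and those of D. virilis 650517 to 1316804. Reads that fell outside annotated genes made up 53.1% to 56.6% of a D. montana file but 8.86% to 14.9% of a D. virilis file. Reads with several alignments made up 18.4% to 23.8% for D. montana and 75.6% to 83.4% for D. virilis. The part of these differences in the levels below was not tested. Every file counted 0% of its reads as not aligned, so any reads that failed to align cannot be seen in these shares. With 3 counts as the most that a count of 0 allows, the limit was 1.34 to 1.98 CPM in a single D. montana library, while the rule took the mean over 3.

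The 44 genes made up 1.17% of the 3754 identifiers with 50 CPM or more in the D. virilis controls. Of those 3754, 2989 also exceeded 50 CPM in the D. montana controls, 542 lay above 25 and up to 50 CPM, 115 above 10 and up to 25, and 64 above 3 and up to 10. The genes thus formed the low end of a thin tail with no gap at the threshold. Just inside the D. montana limit were FBgn0257300 at 2.95 CPM and FBgn0257230 at 2.68 CPM, and just outside it FBgn0257342 at 3.23 CPM and FBgn0257334 at 3.29 CPM. Just inside the D. virilis limit were FBgn0211318 at 53.0 CPM and FBgn0257309 at 53.1 CPM, and just outside it FBgn0198348 at 47.0 CPM and FBgn0257303 at 46.8 CPM. The opposite set, with 50 CPM or more in the D. montana controls and 3 CPM or less in the D. virilis controls, held 15 of 4116 identifiers.

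What the rule did not use is the identifier number, and most of the 44 genes shared it closely. Of the 44, 31 (70.5%) had high numbers, from FBgn0257214 to FBgn0257405, and 13 had middle numbers between FBgn0198549 and FBgn0211515. High numbers, FBgn0256559 and above, made up 858 of the 15342 identifiers (5.59%), and middle numbers, FBgn0197334 to FBgn0211799, made up 14270 (93.0%). None of the 213 identifiers below these was chosen. Of them, 87 had 50 CPM or more in the D. virilis controls. Among middle numbers at that level 13 of 3582 were chosen, so nothing is read from a count of 0 among 87. The opposite set held 1 high number among its 15. The files used here do not say how the numbers were given out, and neither position nor kind of gene follows from them. What kind of gene models the high numbers stand for was not looked up.

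The 31 genes lie in a run of 192 consecutive identifiers with no number missing, bounded here by its lowest and highest chosen gene and so defined with the values in view. Of the run, 76 identifiers had 50 CPM or more in the D. virilis controls and 31 of these (40.8%) were near-absent from the D. montana controls, against 13 of 3678 (0.353%) outside the run. In the acclimated libraries, which had no part in choosing the genes, 79 identifiers of the run had a D. virilis mean of 50 CPM or more, and 74 of them (93.7%) were more than 8-fold lower in D. montana. Outside the run this held for 47 of 3343 (1.41%). The median log2 ratio of D. montana to D. virilis, on CPM with 0.5 added, was −5.48 in the run and −0.21 outside it.

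Identifiers of the run that missed the rule were also lower in D. montana where acclimated D. virilis had 50 CPM or more. Of the 161, 52 had 50 CPM or more in acclimated D. virilis, at a median of 239 CPM there and 8.62 CPM in acclimated D. montana. Of these 52, 51 were lower in D. montana, against 1998 of the 3343 identifiers at that level outside the run. A choice on high D. virilis levels favours this direction. The 27 chosen genes of the run at that level had medians of 209 and 2.22 CPM. Of the 192 identifiers, 10 had no read in any library. The run as a whole took 1.88% and 2.82% of the gene reads in the D. virilis controls, 3.81% and 2.95% in acclimated D. virilis, and 0.067% to 0.106% in the 6 D. montana libraries.

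**Figure D1:**
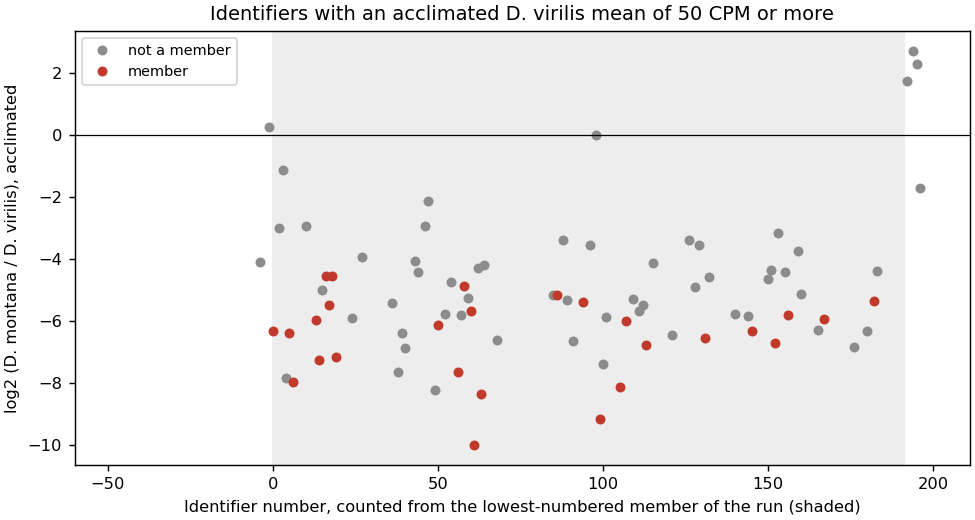
Each point is an identifier with a mean of 50 CPM or more in the 2 acclimated D. virilis libraries, plotted by its number counted from the lowest-numbered chosen gene of the run (x) and by the log2 ratio of its mean in the 3 acclimated D. montana libraries to that mean, with 0.5 CPM added (y). Red points are chosen genes and grey points are others. Inside the shaded run 78 of 79 points lie below 0, with a median of −5.48. Over all numbers outside the run, most of them not shown, 1998 of 3343 identifiers at that D. virilis level lie below 0.

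As a share of the gene reads, the 44 genes held 0.708% and 0.950% in the D. virilis controls and 1.04% and 0.858% in acclimated D. virilis. In D. montana they held 0.00548%, 0.00580% and 0.00574% in the controls and 0.0115%, 0.00875% and 0.00863% in the acclimated libraries. In reads, this was 4604 to 11304 per D. virilis library and 88 to 207 per D. montana library. No gene was without reads in all 6 D. montana libraries. The total over those libraries ran from 1 read to 55, with a median of 19.5, and 27 of the 44 genes had a read in each of them. FBgn0257277 and FBgn0257307 were at 0 in all 3 D. montana controls, and FBgn0211318 and FBgn0257313 in all 3 acclimated D. montana libraries.

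**Figure D2:**
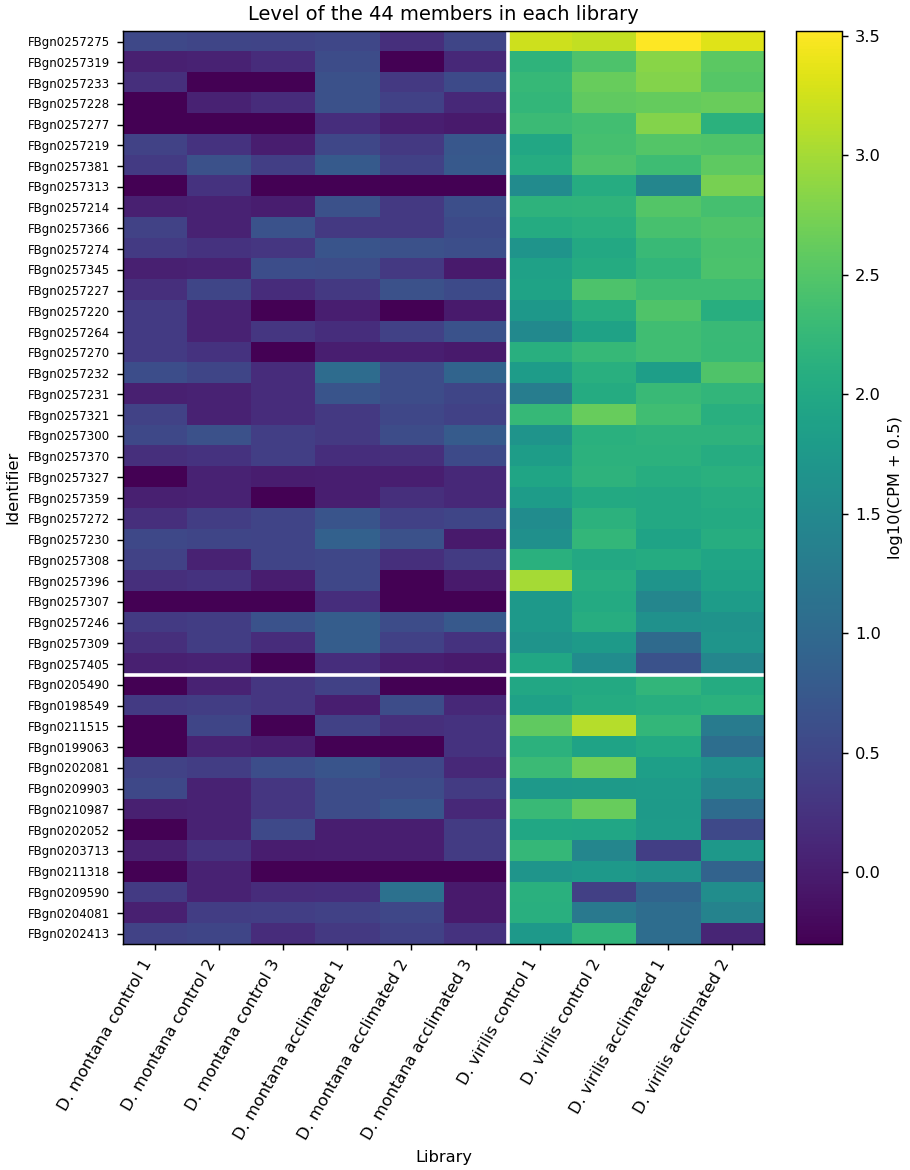
Colour gives the level of each of the 44 genes (rows) in each of the 10 libraries (columns) as log10(CPM + 0.5), with the 31 high-numbered genes above the white line and the 13 middle-numbered genes below it, each ordered by the acclimated D. virilis mean. D. montana levels reach at most 12.7 CPM, while D. virilis levels run from 0.76 to 3296 CPM.

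The acclimated libraries gave the same measure in samples the rule had not used. There 32 of the 44 genes had a D. virilis mean of 50 CPM or more, against 22.3% of all identifiers, and 32 had a D. montana mean of 3 CPM or less, against 31.6%. Both limits were met by 23 genes (52.3%), against 0.274% of all identifiers. The 12 genes below the D. virilis limit ranged from 5.95 to 45.2 CPM, and the 12 above the D. montana limit from 3.04 to 7.30 CPM. Both acclimated D. virilis libraries exceeded all 3 acclimated D. montana libraries for 42 genes, where 16.4% of all identifiers did so. Of the 19 other identifiers that met both limits in the acclimated libraries, 17 had been below 50 CPM in the D. virilis controls, and 10 belonged to the run.

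**Figure D3:**
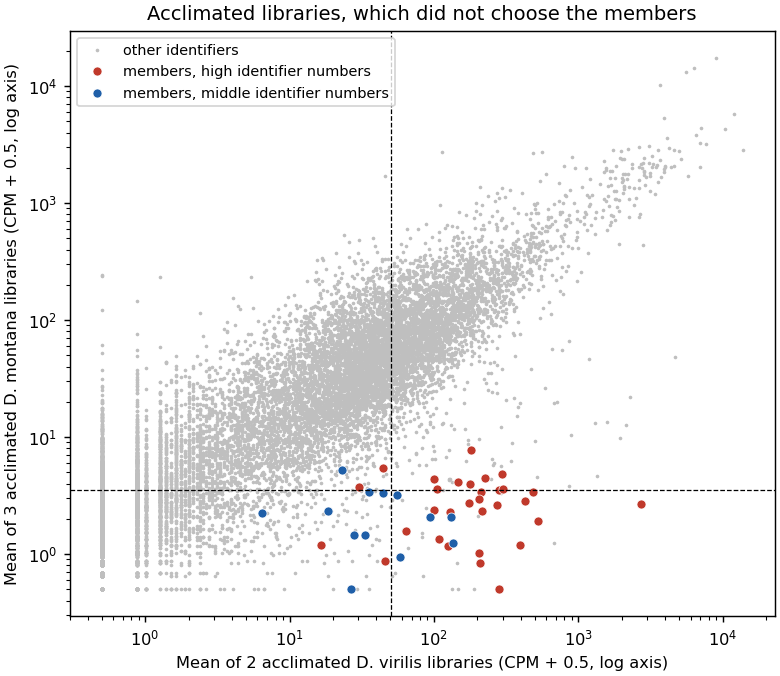
Mean level over the 2 acclimated D. virilis libraries (x) against the mean over the 3 acclimated D. montana libraries (y), in CPM with 0.5 added on log axes, for all 15342 identifiers. Dashed lines mark 50 and 3 CPM; of the chosen genes, in red (high numbers) and blue (middle numbers), 23 lie in the lower right field.

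In a fit of the acclimated libraries alone, 40 of the 44 genes passed the filter on low counts and all 40 were called lower in D. montana, against 26.5% of the 9573 identifiers tested (edgeR's quasi-likelihood test, Benjamini-Hochberg adjusted p under 0.05). FBgn0257232 was the 1 gene at the filter level of 5.54 CPM in 2 or more of the D. montana libraries. The others passed through D. virilis, which favours a call without forcing it, so the count supports nothing. With no filter, 43 of the 44 were called, against 17.7% of 14575 identifiers. The exception was FBgn0202413, with acclimated levels of 11.1 and 0.76 CPM in D. virilis and 1.66, 2.22 and 1.34 CPM in D. montana, which overlapped (edgeR adjusted p = 0.080). Over the genes, acclimated D. virilis exceeded acclimated D. montana by a median of 68.0-fold, with genes at 0 set to the limit of 3 counts over the group. How much of this is transcript and how much is match to the annotation cannot be told apart.

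The highest level in D. virilis was that of FBgn0257275. It stood at 1674 and 1464 CPM in the controls and 3296 and 2168 CPM in the acclimated libraries of D. virilis, against 2.89, 2.64 and 2.52 CPM in the D. montana controls and 2.77, 1.11 and 2.68 CPM after acclimation. In acclimated flies its log2 difference, D. montana minus D. virilis, was −10.54 with no filter on low counts (SE 0.34, edgeR adjusted p = 8.4e-14). With the filter, which it passed through D. virilis, the p was larger (−10.54, SE 0.36, edgeR adjusted p = 5.7e-08). The next highest acclimated level among the chosen genes was 696 CPM.

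FBgn0257319 followed with 152 and 283 CPM in D. virilis controls and 696 and 364 CPM in acclimated D. virilis. Its D. montana levels were 0.58, 0.66 and 1.01 CPM in controls and 3.32, 0 and 0.89 CPM after acclimation. FBgn0257233 had 178 and 427 CPM in D. virilis controls and 647 and 320.5 CPM after acclimation, against at most 3.88 CPM in any D. montana library. In both genes every D. virilis library lay far above every D. montana library, and the D. virilis libraries of a group differed by up to 2.40-fold for FBgn0257233.

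FBgn0257228 was steadier after acclimation, with 171 and 382 CPM in D. virilis controls and 409 and 448 CPM in acclimated flies, and 0 to 3.88 CPM in D. montana. FBgn0257219 read 96.8 and 248 CPM in the D. virilis controls and 308 and 295 CPM in the acclimated libraries, and 0.50 to 4.92 CPM in D. montana. FBgn0257277 had 201 and 233 CPM in D. virilis controls but 650.2 and 135 CPM in the acclimated pair. Its D. montana controls held 0 reads and its acclimated D. montana libraries 4 reads in all. These 5 genes after FBgn0257275 belong to the same run of numbers, as does every chosen gene with an acclimated D. virilis mean above the 136 CPM of FBgn0205490.

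At 0 in acclimated D. montana, FBgn0257313 had 27.3 and 540 CPM in the acclimated D. virilis libraries, a pooled level at least 624-fold higher against the limit of 3 counts over the 3 D. montana libraries. These D. virilis libraries differed 19.7-fold, and without acclimated 2 the bound was 53.3-fold. FBgn0211318 had 44.6 and 7.59 CPM there, at least 45.7-fold higher on the same terms and at least 14.8-fold without acclimated 1. For both, the bound rests on how many gene reads were sequenced in D. montana, and covers counting error only.

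The highest acclimated D. montana level was that of FBgn0257232, with 10.5, 3.32 and 8.05 CPM against 3.46, 2.64 and 1.01 CPM in the controls. In D. virilis it had 64.6 and 127 CPM in controls and 68.9 and 293 CPM after acclimation. FBgn0257246 had 6.09, 3.32 and 5.37 CPM in acclimated D. montana and 42.5 and 45.6 CPM in acclimated D. virilis, so that the groups were separate. Its log2 difference with no filter was −3.46 (SE 0.37, edgeR adjusted p = 7.4e-07), and with the filter −3.46 (SE 0.36, edgeR adjusted p = 3.0e-05). FBgn0257381 had 5.54, 2.22 and 5.37 CPM against 213 and 377 CPM.

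FBgn0209590 was a case apart, because single libraries carried it in both species. In D. virilis it had 131 CPM in control 1 but 2.15 CPM in control 2, and 8.10 and 37.2 CPM after acclimation. In D. montana it had 12.7 CPM in acclimated library 2 and 0.45 to 1.73 CPM in the other 5. The acclimated groups overlapped. With no filter its log2 difference was −2.67 (SE 0.75, edgeR adjusted p = 0.0079). With the filter, which it passed through D. virilis, the difference was −2.66 (SE 0.90, edgeR adjusted p = 0.025). That call was lost with DESeq2 (adjusted p = 0.21) and without D. montana acclimated 1 or 3 (edgeR adjusted p = 0.12 and 0.088). It was also lost without D. virilis acclimated 2 (−1.15, edgeR adjusted p = 0.42), a fit in which the 1 remaining D. virilis library is assumed to vary like those of D. montana. By the rule as applied to each library rather than to means, it would not have been chosen.

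The spread between the acclimated D. virilis pools differed between the high-numbered and the middle-numbered genes. In the control pair, which the rule used, the median absolute log2 ratio was 1.09 for the high-numbered and 1.14 for the middle-numbered genes. It was 0.23 over the 3754 identifiers with a D. virilis control mean of 50 CPM or more. In the acclimated pair, which the rule did not use, the absolute log2 ratio of the libraries had a median of 0.46 for the 31 high-numbered genes and 2.44 for the 13 middle-numbered genes. It was 0.28 over the 3422 identifiers with a D. virilis acclimated mean of 50 CPM or more. That level was reached by 27 of the 31 but only 5 of the 13. Differences of more than 4-fold were seen for 5 of the 31 and 8 of the 13, against 1.02% of those 3422. No test was made, and the low level of some genes adds counting error to the ratio.

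Among the middle-numbered genes, libraries stood in 2 recurring orders, picked out after the values were seen. In 5 of the 13 the level was highest in control 2, followed by control 1, acclimated 1 and acclimated 2, an order held by 5.04% of all tested identifiers. The rule chose genes with high controls, which favours an order with both controls on top, so nothing is read from this share. FBgn0211515 had the highest level among them, with 1234 CPM in control 2, 381 CPM in control 1, 168 CPM in acclimated 1 and 19.0 CPM in acclimated 2. FBgn0202413 spanned the widest range, with 158, 58.4, 11.1 and 0.76 CPM in the same order. In D. montana FBgn0211515 had at most 2.64 CPM, and its log2 difference in acclimated flies, with no filter, was −6.13 (SE 0.70, edgeR adjusted p = 1.3e-06). With the filter it was −6.15 (SE 0.87, edgeR adjusted p = 0.00019).

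In 3 others, FBgn0203713, FBgn0204081 and FBgn0209590, control 1 was highest and acclimated 2 second, as in 10.7% of all tested identifiers. FBgn0203713 had 177 CPM in control 1, 53.2 CPM in acclimated 2, 27.9 CPM in control 2 and 2.03 CPM in acclimated 1. In this second order the controls and the acclimated pools overlapped. The steadiest of the 13 were FBgn0205490, with 98.4 and 103 CPM in controls and 160.0 and 112 CPM after acclimation, and FBgn0198549, with 76.9 and 112 CPM and then 122 and 139 CPM.

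The high-numbered genes had another order. D. virilis control 1 was the lowest of the 4 libraries for 21 of the 31, against 14.0% of all tested identifiers, and control 2 exceeded control 1 for 27. Over the 3754 identifiers with 50 CPM or more in the D. virilis controls, control 2 was the higher for 1427. The rule used these control values, and no test was made. Control 1 was also the library with the fewest gene reads and the smallest share of reads with several alignments in D. virilis, and the part of these in the order was not tested.

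**Figure D4:**
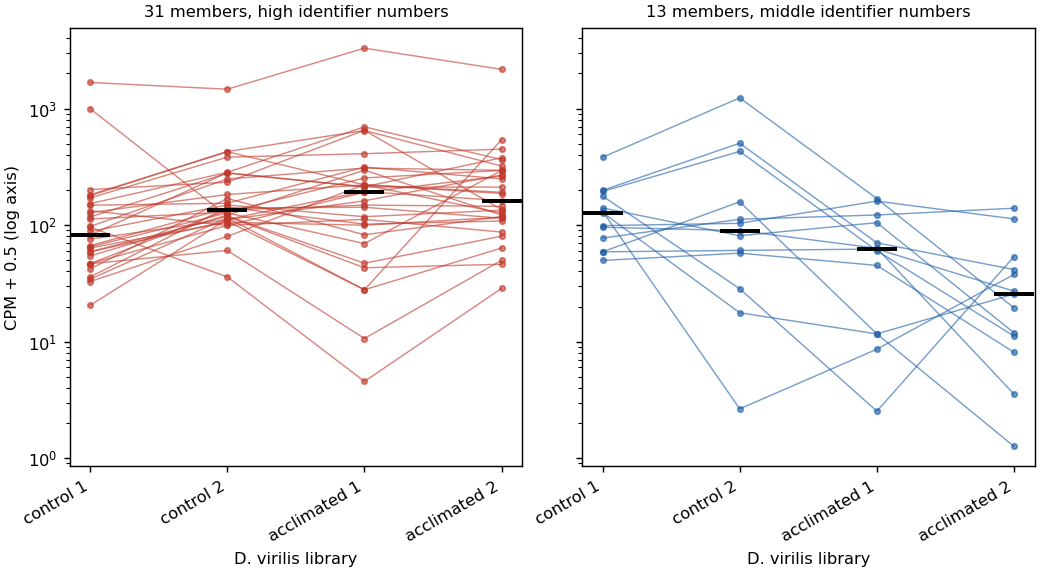
Level of each chosen gene in the 4 D. virilis libraries, in CPM with 0.5 added on a log axis, for the 31 high-numbered genes (left) and the 13 middle-numbered genes (right). Thin lines only join points of the same gene and black bars are medians; the medians are 81.5, 134, 190.4 and 162 CPM on the left and 128, 89.1, 61.8 and 25.1 CPM on the right, from control 1 to acclimated 2.

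Cold acclimation in D. virilis was examined next. The controls chose the genes as high, so a lower level after acclimation is favoured by the choice and the fold changes are a description. All 44 genes were tested and 0 passed, where 0.312% of the 7692 identifiers did, 0.182% higher and 0.13% lower (edgeR's quasi-likelihood test, adjusted p under 0.05). DESeq2 called 6 higher and 1 lower, against 0.78% and 0.429% of all tested and 1.21% in both directions. With limma-voom 1 was called higher and 0 lower, against 0.403% and 0.273%, or 0.676% in all. With no filter on low counts edgeR called 15 higher and 9 lower, against 1.95% and 1.1% of 13038 identifiers, or 3.05% in all. At an unadjusted p under 0.05, edgeR gave 18 with the filter, of which 10 were higher and 8 lower, against 7.18% and 5.64% of all tested identifiers, or 12.8% in all. The counts moved when 1 library was left out, in fits where the lone library of a group is assumed to vary like the other group. Without control 1 edgeR called 0 higher and 3 lower, against 0.0869% and 0.273% of all tested. Without control 2 it called 1 and 1, against 0.0245% and 0.0368%. Without acclimated 1 it called 4 and 7, against 0.565% and 0.601%, and without acclimated 2 it called 7 and 1, against 1.7% and 0.934%.

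The fold changes were also described by identifier number, a split made after the values were seen, and the difference between the blocks was not tested. The median log2 fold change was 0.72 over the 31 high-numbered genes, with 23 above 0, and −1.41 over the 13 middle-numbered genes, with 2 above 0. Over all tested identifiers the median was −0.01 and 49.6% were above 0. Over the 44 genes together it was 0.34, with 0.95 when D. virilis control 2 was left out and 0.11 when control 1 was. Identifiers chosen by the same limits in the acclimated libraries, a choice that favours higher levels there, numbered 42 and had a median of 0.97. The 94 tested identifiers of the run that the rule had not chosen had a median of 0.42, with 63 above 0. Of these 94, edgeR called 2 higher and 0 lower at an adjusted p under 0.05, against 0.182% and 0.13% of all tested. At an unadjusted p under 0.05, 24 were higher and 0 lower, against 7.18% and 5.64%.

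The gene nearest to the threshold was FBgn0257366, with 112 and 129 CPM in D. virilis controls and 253 and 294 CPM after acclimation. Its groups did not overlap, as for 15.5% of tested identifiers in this direction. On the log2 scale it was higher by 1.29 after acclimation (SE 0.22, edgeR adjusted p = 0.055), and it passed with limma-voom (adjusted p = 0.043) and DESeq2 (adjusted p = 0.0033). Without control 1 or control 2 the edgeR adjusted p was 0.33 and 0.17, and without acclimated 1 or acclimated 2 it was 0.030 and 0.039, on the same assumption about the lone library. In D. montana it had 2.31, 0.66 and 4.03 CPM in controls and 1.66, 1.66 and 3.13 CPM after acclimation, which overlapped.

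In the other direction, FBgn0202081 had 198 and 503 CPM in D. virilis controls and 69.9 and 41.0 CPM after acclimation. The difference on the log2 scale was −2.58 (SE 0.47, edgeR adjusted p = 0.073). Both acclimated libraries were below both controls, as for 30.5% of tested identifiers. It passed with DESeq2 (adjusted p = 0.042) and with library sizes left unscaled (edgeR adjusted p = 0.047), but not with limma-voom (adjusted p = 0.075). Without control 2 the difference was −1.63 (edgeR adjusted p = 0.22) and without acclimated 2 it was −2.20 (edgeR adjusted p = 0.070). Without control 1 or acclimated 1 it passed (edgeR adjusted p = 0.0017 and 0.033). FBgn0257366 and FBgn0202081 were picked out after their values were seen, as none of the 44 genes met the rule for naming a changed gene. FBgn0257396, with the second-largest ratio between controls, had 996 CPM in control 1, 119 CPM in control 2 and 46.6 and 79.7 CPM after acclimation. Its log2 difference was −2.97 (SE 0.76, edgeR adjusted p = 0.14), with −0.85 when control 1 was left out and −3.76 when control 2 was. FBgn0257405 had 95.3 and 35.4 CPM in controls and 4.05 and 28.1 CPM after acclimation.

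In D. montana none of the 44 genes passed the filter on low counts, so none was tested there with the 9315 identifiers of which 1.67% were called. With no filter all 44 were tested and 0 passed, against 1.69% of 14680 identifiers (edgeR's quasi-likelihood test, lowest adjusted p = 0.125). At an unadjusted p under 0.05 the count was 7, all higher after acclimation, where 6.21% of all tested were higher and 10.9% passed in either direction. The acclimated mean exceeded the control mean for 35 of the 44, a direction favoured by the choice of genes that were low in the controls.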

How the data were processed

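Per the submitters' processing notes, the deposited counts are HTSeq read counts per gene identifier; no aligner, build or annotation is named there, in the labels or in the files. The 5 counter lines of each file were left out of totals and tests. CPM is the count divided by the library's gene reads, times 1e6. The species were compared in the 5 acclimated libraries, and acclimation within each species, with edgeR 4.0.16 (quasi-likelihood F-test; limma 3.58.1, R 4.3.3): TMM scaling, filterByExpr by group (minimum count 10, minimum total 15), Benjamini-Hochberg adjustment over all tested identifiers, called under 0.05. Each SE was obtained from the fold change without shrinkage and its F statistic. DESeq2 1.42.0 and limma-voom were alternatives. Depth was 650517 to 2235850 gene reads per library, and intervals and limits cover counting error only.

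Identifiers were named by rule: the 6 highest acclimated D. virilis means, the 4 highest acclimated D. montana means, the 2 on each side of each limit, called genes, the 2 largest ratios between D. virilis controls and the 2 lowest acclimated D. virilis means. Others were chosen after their values were seen. The genes and groupings were chosen with earlier results of these data known. Same-numbered libraries did not deviate together, so the numbers were not taken as pairs.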

Additional observations from a re-analysis of the deposited data

How the results depend on the processing

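The number of genes under the rule depended on its limits. It was 92 with 20 CPM and 24 with 100 CPM as the D. virilis limit, 19 with 1 CPM and 64 with 5 CPM as the D. montana limit, and 24 when every control library had to meet its limit. It ranged from 39 to 48 when 1 control library was left out. With each acclimated library required to meet its limit, 9 genes met both, against 23 by means, and 22 to 24 did when 1 acclimated library was left out. The difference in share of gene reads between acclimated D. virilis and D. montana was 0.940 percentage points, 1.08 without the 20 most abundant identifiers, and 0.849 to 1.03 when 1 library was left out.

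With 1 library left out, 39 to 41 of the 40 to 42 genes tested were called lower in acclimated D. montana, against 20.2% to 24.7% of all tested. Passing the filter through D. virilis favours a call, so these counts support nothing. In the species fit, library sizes without scaling moved the median log2 difference of all tested identifiers from 0.04 to 0.37. For acclimation in D. virilis, 0 genes were called in either direction. Without an expression filter 15 were called higher and 9 lower, against 1.95% and 1.1% of all tested. With DESeq2 6 were called higher and 1 lower, against 0.78% and 0.429%. With limma-voom 1 was called higher, against 0.403%, and without scaling factors 1 lower, against 0.234%. With the replicate number as a block, 3 were called higher, against 0.312% of all tested. Of the 42 identifiers chosen on the acclimated libraries instead, 1 was called higher, against 0.182% of all tested, a direction favoured by that choice. Deviations of same-numbered D. virilis libraries were hardly related (r = −0.045), so the numbers are not shown to pair them. Leaving out 1 library, with the lone library assumed to vary like the other group, gave 0 to 7 higher and 1 to 7 lower: 3 lower without control 1, 1 and 1 without control 2, 4 higher and 7 lower without acclimated 1, and 7 and 1 without acclimated 2. The median log2 fold change was 0.34, 0.11 to 0.95 when 1 library was left out, 0.97 when chosen on the acclimated libraries, and −1.41 over the middle-numbered genes alone, an alternative added after seeing the data. The log2 fold change turned for FBgn0257277 without acclimated 1 (−0.60, and up to 1.73 without another library), for FBgn0257232 without acclimated 2 (−0.36, and up to 1.69) and for FBgn0209590 with limma-voom (0.72) and without control 1 (3.40, and down to −2.73). The cause of these differences was not tested. The D. montana levels rest on 1 to 55 reads per gene over 6 libraries.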
